A study of Mus musculus with 6 samples.

Results

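Mitotic kinesins, spindle genes and cytokinesis genes form a set of 32 genes whose products build the mitotic spindle, move chromosomes on it and divide the cell. The set holds 12 kinesins, 9 spindle assembly genes, 4 kinases of centrosome and mitosis, 6 genes of the central spindle and cytokinesis, and Mki67. A gene counted as measured where a probe set of the array was annotated with its symbol and no other, and the brightest such probe set over the 6 arrays stood for it. By this rule 31 of the 32 genes were measured, among 19938 genes in all. Kifc1, a minus-end-directed kinesin, was not, because its probe set is also annotated with the neighbouring copy Kifc5b.

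The samples were mouse lung endothelial cells (lECs) of C57BL/6 background on 6 arrays, 3 per group. L1CAM cells had been stably transfected with a vector of the pcDNA series with a hygromycin marker that carried full-length mouse L1CAM, a cell adhesion molecule of the immunoglobulin superfamily. Control cells carried the same vector without an insert, so both groups share the vector. Both were grown on gelatin in complete medium with 20 percent serum, heparin and endothelial growth supplement until confluent, which took 4 days. The labels call the replicates biological and independent, but do not say whether a transfected line was a clone or a pool, so p-values cover the spread between cultures of these lines. The values are log2 RMA expression values, a scale on which 1 unit is a doubling, and all differences are L1CAM minus control.

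At mitosis, microtubules grow from duplicated centrosomes and around chromosomes, and kinesins slide, bundle and shorten them to form a bipolar spindle. After the chromosomes separate, antiparallel microtubules left between them become the central spindle, which positions the contractile ring and later the midbody, where the daughters are cut apart. Transcripts of most of these genes peak in the late cell cycle and are low in resting cells, which is why Mki67 is used as a marker of proliferation.

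The transfected gene L1cam read 10.49, 10.60 and 10.73 on the L1CAM arrays, against 6.50, 6.77 and 7.31 on the control arrays (3.75, limma adjusted p = 0.000112). Correlations across genes set L1CAM replicate 1 apart: 0.9948 and 0.9951 with L1CAM replicates 2 and 3, which correlated with each other at 0.9986, and 0.9935 to 0.9952 with the control arrays. Genes are not independent replicates, so these values describe the arrays only. Of 10 endothelial markers, 8 read 11.5 or higher on the mean of both groups, among them Cdh5 (13.04 in L1CAM cells and 13.12 in control cells) and Pecam1 (12.58 and 12.65). Vwf (6.84 and 6.85) and Cldn5 (6.86 and 7.08) lay near the array medians of 6.55 to 6.58, and Cldn5 was the 1 endothelial marker called, with a difference of -0.22 (adjusted p = 0.0446, and 0.0636 with array medians set to 0). Of the 10 endothelial markers, 9 had a difference below 0, with a median of -0.08 over the 10. In 8 of the 10, all 3 L1CAM arrays lay below all 3 control arrays, against 16.0% of all genes. Of 19 markers of fibroblasts, mural cells, epithelium and leukocytes, 0 were called by limma and 2 had an unadjusted p below 0.05. The leukocyte gene Cd68 read 12.07 and 12.23, while Ptprc, the common leukocyte marker, read 4.78 and 4.63. Mean levels per array were 6.10 to 6.18 in L1CAM cells and 6.11 to 6.18 in control cells for the fibroblast and mural list, 5.62 to 5.76 and 5.60 to 5.66 for the epithelial list, and 6.25 to 6.26 and 6.22 to 6.34 for the leukocyte list.

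All 31 measured members read lower in L1CAM cells than in control cells on average, and 29 of them fell by the test, limma with Benjamini-Hochberg adjustment over all genes at a threshold of 0.05. No member was higher. Of all genes tested, 8.19% were called lower and 6.85% called higher. The median difference of the members was -1.25, against 0.02 over all genes, and single members ranged from -1.61 (Hmmr) to -0.81 (Cit). A difference of -1 or lower was reached by 26 members, 83.9% of them, and by 1.17% of all genes. Members made up 11.2% of the 233 genes at or beyond that size. They lie on 13 chromosomes. In bulk RNA a smaller share of dividing cells and less of each transcript per dividing cell cannot be told apart.

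**Figure D1:**
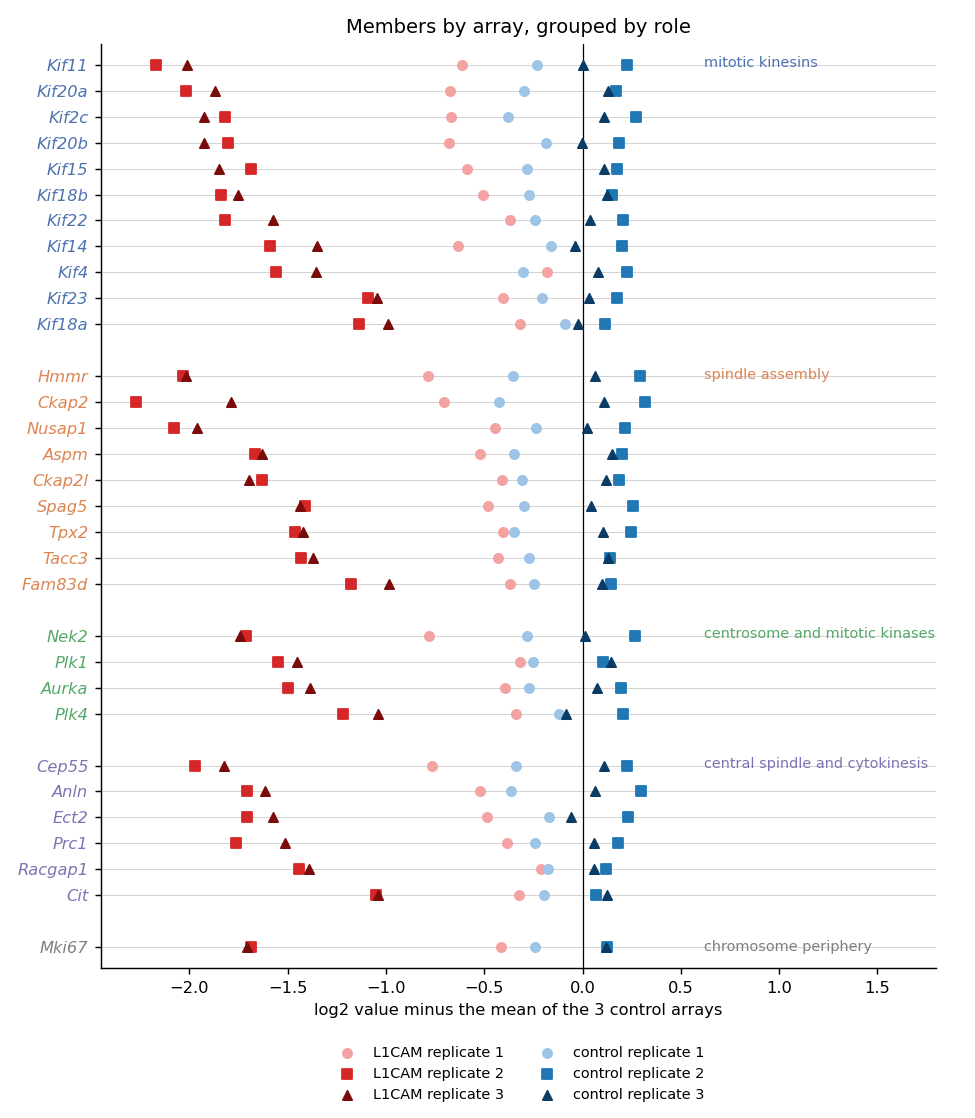
Each row is 1 measured member, grouped by role, and each point is 1 array, drawn as its log2 value minus the mean of the 3 control arrays. L1CAM replicates 2 and 3 lie far to the left in every row, L1CAM replicate 1 lies between them and the control arrays, and only for Kif4 does it lie right of a control array.

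The size of the fall differed between L1CAM arrays. Against the control mean, members lay at a median of -0.45 in L1CAM replicate 1 (range -0.79 to -0.18), -1.69 in replicate 2 (range -2.28 to -1.05) and -1.58 in replicate 3 (range -2.02 to -0.98). In all 31 members the highest L1CAM array was replicate 1. Its distance from the control mean was 12.5% (Kif4) to 45.1% (Nek2) of the mean distance of replicates 2 and 3, with a median of 30.5%. The control arrays also had an order: control replicate 1 was the lowest of the 3 in all 31 members, by a median of 0.27 below their mean, and control replicate 2 the highest in 29. All 3 L1CAM arrays lay below all 3 control arrays in 30 members, against 16.0% of all genes, and replicates 2 and 3 alone did so in 31 members, against 22.6% of all genes. Separation does not give the size of a difference: 8 of the 10 endothelial markers were separated too, at a median difference of -0.08.

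The number of calls changed with the arrays used. Without L1CAM replicate 1, all 31 members were called (12.9% of all genes were called lower), with limma adjusted p-values of 2.47e-05 to 0.000454 and a median difference of -1.65. Without control replicate 1 the fit called 14 members (4.80% of all genes lower). Leaving out L1CAM replicate 2 left 1 called member, Kif14 (3.73% of all genes lower), and leaving out L1CAM replicate 3 left 1, Nek2 (3.43% of all genes lower), so these member counts were no higher than the share over all genes. Without control replicate 2 or control replicate 3, limma called 0 members (2.90% and 2.96% of all genes lower). In these fits 30 and 31 members had an unadjusted p below 0.05, against 11.7% and 11.9% of all genes lower at that level. Member differences stayed below 0 in each of these 6 fits, between -2.09 and -0.65.

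**Figure D2:**
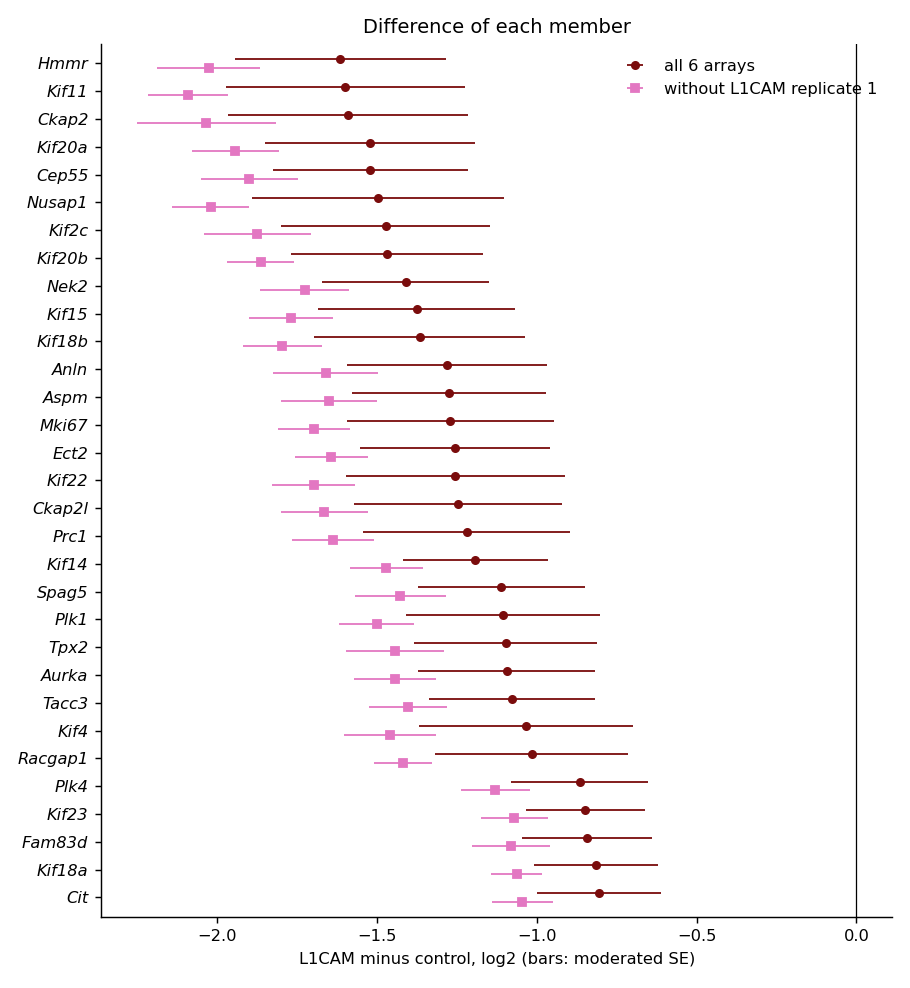
Points are the difference of each measured member, L1CAM minus control, on the log2 scale, with all 6 arrays (circles) and without L1CAM replicate 1 (squares), and bars are moderated standard errors. Every square lies left of its circle and has a shorter bar, and no bar reaches 0.

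The promoters of the members were searched for letters of elements known from late cell cycle genes. The CHR element, which the MuvB complexes of DREAM, B-MYB and FOXM1 bind, often sits close to the start site, with CCAAT boxes, bound by NF-Y, upstream of it. The searched letters were TTTGAA and TTTAAA for CHR and its variant, CCAAT for the box, and TTTCCCGC or TTTGGCGC for an E2F-type site, on both strands, in RefSeq windows of 250 bases before to 50 bases after a start. The windows printed are those of the 3 members with the largest called falls that hold CHR letters, Hmmr, Kif11 and Ckap2, and of Cit, the member with the smallest difference. Each is read 5′ to 3′ on the strand of its gene, with capitals on matches to the CHR letters, its variant or CCAAT, on either strand, and coordinates are of GRCm38.p6.
Hmmr, chr11:40733388-40733687, minus strand: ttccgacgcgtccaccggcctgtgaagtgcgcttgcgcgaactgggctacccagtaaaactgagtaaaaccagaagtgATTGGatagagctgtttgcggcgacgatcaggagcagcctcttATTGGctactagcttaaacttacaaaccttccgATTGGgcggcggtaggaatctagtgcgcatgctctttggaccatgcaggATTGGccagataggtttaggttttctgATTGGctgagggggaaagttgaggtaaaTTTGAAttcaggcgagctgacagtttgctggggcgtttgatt
Kif11, chr19:37376132-37376431, plus strand: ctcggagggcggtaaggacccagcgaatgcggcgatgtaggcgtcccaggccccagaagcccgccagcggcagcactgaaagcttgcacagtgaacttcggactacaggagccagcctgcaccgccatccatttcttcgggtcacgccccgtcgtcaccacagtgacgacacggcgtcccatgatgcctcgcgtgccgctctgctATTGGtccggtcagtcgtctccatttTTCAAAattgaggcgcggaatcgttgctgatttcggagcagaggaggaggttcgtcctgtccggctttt
Ckap2, chr8:22185770-22186069, minus strand: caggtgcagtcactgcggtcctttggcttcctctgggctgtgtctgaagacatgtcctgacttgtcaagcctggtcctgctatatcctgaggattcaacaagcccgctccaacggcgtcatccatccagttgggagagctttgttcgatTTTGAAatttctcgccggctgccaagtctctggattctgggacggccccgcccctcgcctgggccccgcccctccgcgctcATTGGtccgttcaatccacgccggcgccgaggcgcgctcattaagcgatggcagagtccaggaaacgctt
Cit, chr5:115845406-115845705, plus strand: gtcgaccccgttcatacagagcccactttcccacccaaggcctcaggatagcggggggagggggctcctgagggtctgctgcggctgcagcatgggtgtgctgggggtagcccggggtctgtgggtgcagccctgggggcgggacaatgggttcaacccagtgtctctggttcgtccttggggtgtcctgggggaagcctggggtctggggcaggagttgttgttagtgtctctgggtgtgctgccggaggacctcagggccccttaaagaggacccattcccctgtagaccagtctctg

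Windows were found for 29 of the 31 measured members, 32 windows in all because Prc1, Ect2 and Cep55 have more than 1 listed start. Kif20a and Tpx2 have none in the table. The CHR letters or the variant occurred in 27 of the 32 member windows (84.4%), against 27.6% of all 32851 windows and 23.7% of the windows of genes tested. Lying wholly within 50 bases of the start, they occurred in 71.9% of member windows, against 8.28% of all windows and 6.48% of those of genes tested. CCAAT occurred in 65.6% of member windows and in 37.4% of all windows, and both together in 62.5% and 10.7%. In Hmmr the CHR letters begin 9 bases after the start with 5 CCAAT boxes upstream. In Kif11 they begin 19 bases before the start with 1 CCAAT box. Ckap2 differs: its CHR letters begin at position -101 from the start, and its CCAAT box at -20, downstream of them.

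E2F-type letters occurred in Kif15 and Kif18a alone among the members (6.25% of windows, against 1.56% of all windows). Member windows had a median GC content of 59.7%, against 52.7% for all windows and 57.3% for those of genes tested. Matches of different motifs overlapped in 0 places. Neither the CHR letters nor the variant was in the window of Nusap1, Nek2, Tacc3, Kif18a or Cit, whose differences ranged from -1.50 to -0.81 (median -1.08). The 24 members with such letters had a median of -1.26 and ranged from -1.61 to -0.84, so the ranges overlap. A match is a run of letters and was not tested as a binding site.

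**Figure D3:**
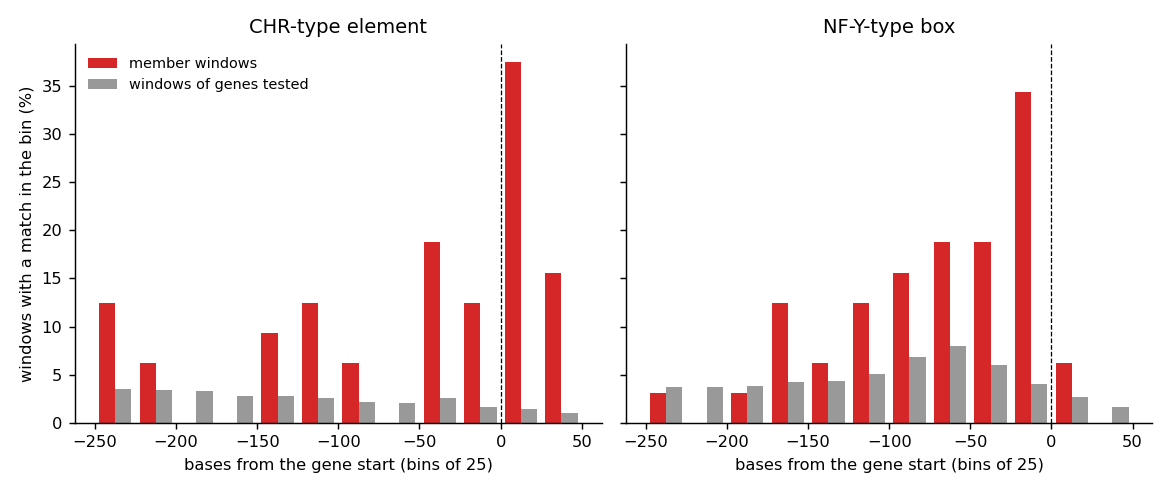
Bars give the percent of promoter windows with a match beginning in each bin of 25 bases, by distance from the gene start (dashed line), for member windows (red) and windows of all genes tested (grey). CHR-type matches in member windows peak at 37.5% in the bin just after the start, and CCAAT matches (NF-Y-type box) at 34.4% in the bin just before it.

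Among motors that shape the bipolar spindle, Kif11, which crosslinks antiparallel microtubules and pushes the poles apart, read 10.14, 8.59 and 8.75 in L1CAM replicates 1 to 3, against 10.53, 10.99 and 10.76 in control replicates 1 to 3. Replicates 2 and 3 of the L1CAM cells were well below every control array, and replicate 1 was below the lowest control array by less than the controls differ among themselves. The fall was 3.03-fold (-1.60, SE 0.37, adjusted p = 0.0284). Kif15, which can hold the spindle bipolar together with Kif11, fell by 1.38 (SE 0.31, adjusted p = 0.0248). Its readings in L1CAM replicates 2 and 3, 6.57 and 6.41, were under the array medians, and no detection calls were used.

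Member motors that shorten microtubules fell as well. Kif2a (0.08, limma adjusted p = 0.505) and Kif2b (-0.14, adjusted p = 0.292), relatives of Kif2c in the list of other kinesins, did not pass. Kif2b read 5.52 in L1CAM cells and 5.66 in control cells, under the array medians. Kif2c, which depolymerises microtubules at centromeres and corrects faulty attachments, read 8.12, 6.96 and 6.86 in L1CAM cells, against 8.40, 9.06 and 8.89 in control cells (-1.47, SE 0.33, adjusted p = 0.0243). The groups do not overlap, and the lowest control array lies nearer to L1CAM replicate 1 than to the other control arrays. Kif18b, which limits the growth of astral microtubules, fell by 1.37 (SE 0.33). Kif18a, which damps the movements of aligned chromosomes, had the smallest fall of the mitotic kinesins, 0.82 (SE 0.19, adjusted p = 0.0299), with 1 L1CAM array under the array median.

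Chromokinesins bind chromosome arms. Kif22, which pushes arms away from the poles, read 8.54, 7.08 and 7.33 in L1CAM cells, against 8.66, 9.11 and 8.94 in control cells, and fell by 1.25 (SE 0.34, adjusted p = 0.0465). Kif4, which acts in chromosome structure and sets the length of the central spindle, read 8.37, 6.99 and 7.19 in L1CAM cells, against 8.25, 8.78 and 8.63 in control cells. L1CAM replicate 1 was above control replicate 1, so the groups overlap, and Kif4 was the only member with such an overlap. Its difference of -1.03 (SE 0.33, 95% interval -1.81 to -0.26) did not pass (adjusted p = 0.0788), and it was -1.46 without L1CAM replicate 1 (adjusted p = 0.000235).

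Kinesins of the central spindle and midbody fell by different amounts. Kif20a, which carries the chromosomal passenger complex to the central spindle, read 9.48, 8.14 and 8.29 in L1CAM cells, against 9.86, 10.33 and 10.29 in control cells (2.87-fold lower, adjusted p = 0.0218). Kif20b, its relative in late cytokinesis, was 2.77-fold lower. Kif14, which brings citron kinase to the midbody, fell by 1.19 (SE 0.23, adjusted p = 0.0138), and its values for L1CAM replicates 2 and 3, 6.33 and 6.57, were under the array medians. A second probe set of Kif14 read 4.38 to 4.60 on the 6 arrays with a difference of 0.04, so the 2 probe sets disagree, and the second reads under the lower quartile of the arrays (5.01 to 5.04). Kif23, which forms the centralspindlin complex with Racgap1, fell by 0.85 (SE 0.19, adjusted p = 0.0232).

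Of 32 measured genes for transport, ciliary and other kinesins with their light chains and adaptor, 4 were called lower and 1 higher. The share called lower was 12.5%, against 8.19% of all genes, and the median difference was -0.01. Kif24, a centriolar kinesin that restrains cilium formation, fell by 0.74. Kif9, known from motile cilia, fell by 0.49, and Kif26a, an atypical kinesin without motor activity, by 0.44. The L1CAM readings of Kif24 (6.51, 5.98 and 6.32) and Kif9 (6.30, 6.45 and 6.30) were under the array medians. Kif3a, a subunit of kinesin-2, the motor of ciliary transport, read 8.43, 8.82 and 8.82 in L1CAM cells, against 8.02, 8.11 and 8.14 in control cells, and rose by 0.60 (SE 0.11, adjusted p = 0.0124). L1CAM replicate 1 was again the one nearest to the control arrays. Of the 11 measured mitotic kinesins, 10 were called lower, with a median of -1.37. Kif9 was called in all 6 fits that leave out an array, Kif24 in 5, Kif3a in 3 and Kif26a in 2. The difference between the groups of kinesins was not itself tested.

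**Figure D4:**
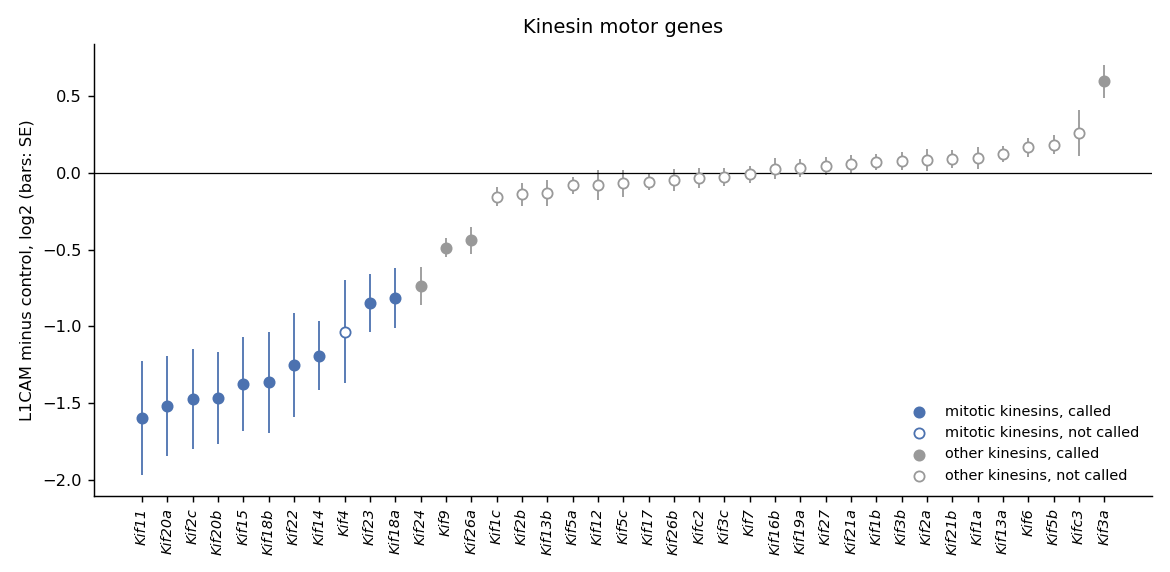
Each point is the L1CAM minus control difference of 1 kinesin motor gene on the log2 scale, with its moderated standard error, for 11 mitotic kinesins (blue) and 28 other kinesins (grey), filled where called. The mitotic kinesins lie between -1.60 and -0.82, and most other kinesins lie close to 0, with Kif24, Kif9 and Kif26a below it and Kif3a above it.

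All 9 spindle assembly genes fell, with a median of -1.25. Hmmr, which helps to place Tpx2 at the spindle poles, showed the largest fall of all members. It read 7.84, 6.59 and 6.61 in L1CAM cells, against 8.27, 8.92 and 8.69 in control cells, a 3.06-fold fall (SE 0.33 on the log2 scale, adjusted p = 0.0186). L1CAM replicates 2 and 3 were within 0.1 of the array medians.

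Ckap2, a nucleator of spindle microtubules, read 8.85, 7.28 and 7.76 in L1CAM cells, against 9.13, 9.87 and 9.66 in control cells, and was 3.01-fold lower (adjusted p = 0.0293). Its L1CAM replicates 2 and 3 lay 0.48 apart, the widest gap of the members. Its relative Ckap2l, known in mouse from dividing neural progenitors, fell by 1.25 (adjusted p = 0.0411). Nusap1, which bundles microtubules near chromosomes, was the member with the widest spread in L1CAM cells: 9.21 ± 0.91 in L1CAM cells and 10.70 ± 0.23 in control cells (SD, n = 3 each), 2.82-fold lower by limma (adjusted p = 0.0424). Aspm, a spindle pole protein whose loss causes small brains, fell by 1.27 (SE 0.30, adjusted p = 0.0306).

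The remaining spindle genes fell by less. Spag5, a protein of kinetochores and spindle poles, fell by 1.11 (adjusted p = 0.0290), and Tacc3, which crosslinks kinetochore microtubules, fell by 1.08 (adjusted p = 0.0315). Tpx2, which activates Aurora A on the spindle, was 2.14-fold lower (adjusted p = 0.0405). Fam83d, which brings casein kinase 1 to the spindle, read 8.67, 7.86 and 8.06 in L1CAM cells, against 8.79, 9.19 and 9.14 in control cells (-0.84, SE 0.20, adjusted p = 0.0314). In each of these genes L1CAM replicate 1 lay just below control replicate 1.

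The 4 kinases of centrosome and mitosis also fell. Nek2, which separates the duplicated centrosomes, had the smallest adjusted p of the members. It read 8.36, 7.43 and 7.40 in L1CAM cells, against 8.86, 9.41 and 9.15 in control cells, and was 2.66-fold lower (-1.41, SE 0.26, adjusted p = 0.0124). Its L1CAM replicate 1 was the one that moved most relative to replicates 2 and 3. Plk1, the polo-like kinase of mitotic entry, spindle and cytokinesis, was 2.15-fold lower (adjusted p = 0.0481), the called member closest to the threshold. It read 10.77, 9.54 and 9.64 in L1CAM cells, against 10.84, 11.19 and 11.23 in control cells, with L1CAM replicate 1 nearly level with control replicate 1.

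Aurka, the Aurora kinase of centrosomes and spindle poles, fell by 1.09 (SE 0.28, adjusted p = 0.0368). Plk4, the kinase that starts centriole duplication, fell by 0.87 (SE 0.21, adjusted p = 0.0340), with readings of 8.97, 8.09 and 8.27 in L1CAM cells, against 9.19, 9.52 and 9.23 in control cells. Other genes of the polo and TACC families differed among themselves. Plk3, a stress-responsive polo-like kinase, rose by 0.60 (adjusted p = 0.0289) and Tacc2 rose by 0.37 (adjusted p = 0.0267), both called in 1 of the 6 fits that leave out an array, the one without L1CAM replicate 1. Plk2 (-0.10, adjusted p = 0.484) and Tacc1 (-0.24, adjusted p = 0.201) did not pass.

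Of the 6 genes of central spindle and cytokinesis, 5 fell, with a median of -1.24 over the 6. Cep55, which recruits the abscission machinery to the midbody, fell most. It read 8.88, 7.67 and 7.82 in L1CAM cells, against 9.30, 9.87 and 9.75 in control cells, and was 2.87-fold lower (adjusted p = 0.0172). Anln, a scaffold that ties actin, myosin and septins in the contractile ring, Ect2, which activates RhoA at the division plane, and Prc1, which bundles antiparallel microtubules, had differences of -1.28, -1.26 and -1.22 (adjusted p = 0.0329, 0.0299 and 0.0430).

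Racgap1, the partner of Kif23 in centralspindlin, read 10.16, 8.93 and 8.98 in L1CAM cells, against 10.19, 10.49 and 10.43 in control cells. The groups are separated, but L1CAM replicate 1 lies within 0.1 of control replicate 1. Its difference of -1.02 (SE 0.30, 95% interval -1.72 to -0.32) did not pass (adjusted p = 0.0613), and was -1.42 without L1CAM replicate 1 (adjusted p = 3.45e-05). Cit, citron kinase, which stabilises the midbody, read 7.93, 7.20 and 7.21 in L1CAM cells, against 8.06, 8.32 and 8.38 in control cells, and was 1.75-fold lower (adjusted p = 0.0317). The smallest differences of the members, those of Cit, Kif18a, Fam83d, Kif23 and Plk4, lay within 0.1 of each other, less than the standard error of any of them. Mki67, whose protein coats mitotic chromosomes, read 10.49, 9.22 and 9.20 in L1CAM cells, against 10.66, 11.03 and 11.02 in control cells (-1.27, SE 0.32, adjusted p = 0.0378).

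Genes that work beside the members were counted in the same fit, in which 8.19% of all genes were called lower and 6.85% higher. In a list of 45 further spindle and centrosome genes, 21 were called lower and 2 higher, with a median of -0.30. The count called lower was 31 without L1CAM replicate 1 (12.9% of all genes lower) and 8 without control replicate 1 (4.80%). It was 2 without L1CAM replicate 2 or 3 (3.73% and 3.43%) and 1 without control replicate 2 or 3 (2.90% and 2.96%). The counts of 2 and 1 are near the share over all genes. Depdc1a (-1.61), the kinetochore-microtubule gene Ska3 (-1.54) and Stil, a centriole duplication factor that binds Plk4 (-1.49), fell most. Depdc1a was under the array medians in L1CAM replicates 2 and 3 (5.98 and 6.53). All 4 genes of the chromosomal passenger complex, the partner of Kif20a, fell, with differences of -1.41 for Aurkb, -1.25 for Birc5, -1.15 for Cdca8 and -0.77 for Incenp. When 1 array was left out, the count was 4 if it was L1CAM replicate 1, 1 if it was control replicate 1 and 0 otherwise. Of 19 genes of mitotic exit, 4 fell and 0 rose. Fbxo5, an inhibitor of the anaphase-promoting complex, had a difference of -1.58 and an adjusted p just under the threshold, Cdc20, an activator of the complex, -1.06, and the E2 enzymes Ube2c and Ube2s -0.90 and -0.21. The median of the 19 was -0.09. Without L1CAM replicate 1, 7 were called lower, and without any other array 0. With all probe sets tested, Fbxo5 had an adjusted p of 0.0514.

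Of 31 genes of abscission and the contractile ring, 2 fell and 4 rose, with a median of 0.04. The share called lower was 6.45%, below the 8.19% of all genes called lower, and 6.85% of all genes were called higher. The formin Diaph3 fell by 1.05, and the ESCRT gene Chmp4c rose by 0.54. Chmp4c was under the array medians on the control arrays (6.00, 5.91 and 5.93) and in L1CAM replicates 1 and 2 (6.56 and 6.32). The ESCRT gene Chmp3 had a difference of -0.20, called in the fit as described (adjusted p = 0.0372) but not after quantile normalization (0.0512) or with array medians set to 0 (0.0641). Neither Diaph3 nor Chmp3 was called when any array but L1CAM replicate 1 was left out. The phosphatase Cdc14a rose by 0.51 and the small GTPase Arf6 by 0.33. Of 14 tubulins, 3 fell, Tuba4a (-0.92), Tubg2 (-0.61) and Tube1 (-0.60), and 1 rose, Tubb2b, a beta-tubulin of neurons, which read 8.06, 8.07 and 8.41 in L1CAM cells, against 7.08, 7.29 and 6.85 in control cells. Tuba4a and Tubb2b were called in all 6 fits that leave out an array, Tubg2 in 4 and Tube1 in 1. For Tubb2b, L1CAM replicate 1 lay level with replicate 2, and all 3 L1CAM arrays lay above the control arrays.

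Of 14 genes that regulate late cell cycle transcription, 11 had a difference below 0, with a median of -0.20 over the 14. By the test 2 fell (14.3%, against 8.19% of all genes) and 1 rose (6.85% of all genes were called higher). Foxm1, the factor that joins MuvB at CHR promoters, read 8.78, 7.79 and 7.79 in L1CAM cells, against 9.16, 9.46 and 9.49 in control cells (-1.25, SE 0.25, adjusted p = 0.0181). Lin9, a MuvB subunit, fell by 0.73, and E2f4, the repressive E2F of DREAM, rose by 0.28. Lin9 and E2f4 were called in 1 of the 6 fits that leave out an array and Foxm1 in 2 of them. In a list of 16 genes of S phase, 10 fell (62.5%, against 8.19% of all genes) and 0 rose, with a median of -1.02. Cdc45 (-1.55), Rrm2 (-1.55) and Mcm7 (-1.18) fell most among those called. All 16 were called lower without L1CAM replicate 1, and 0 when any other array was left out. The S-phase list had medians of -0.30, -1.48 and -1.35 in L1CAM replicates 1, 2 and 3, the same order of arrays as the members.

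**Figure D5:**
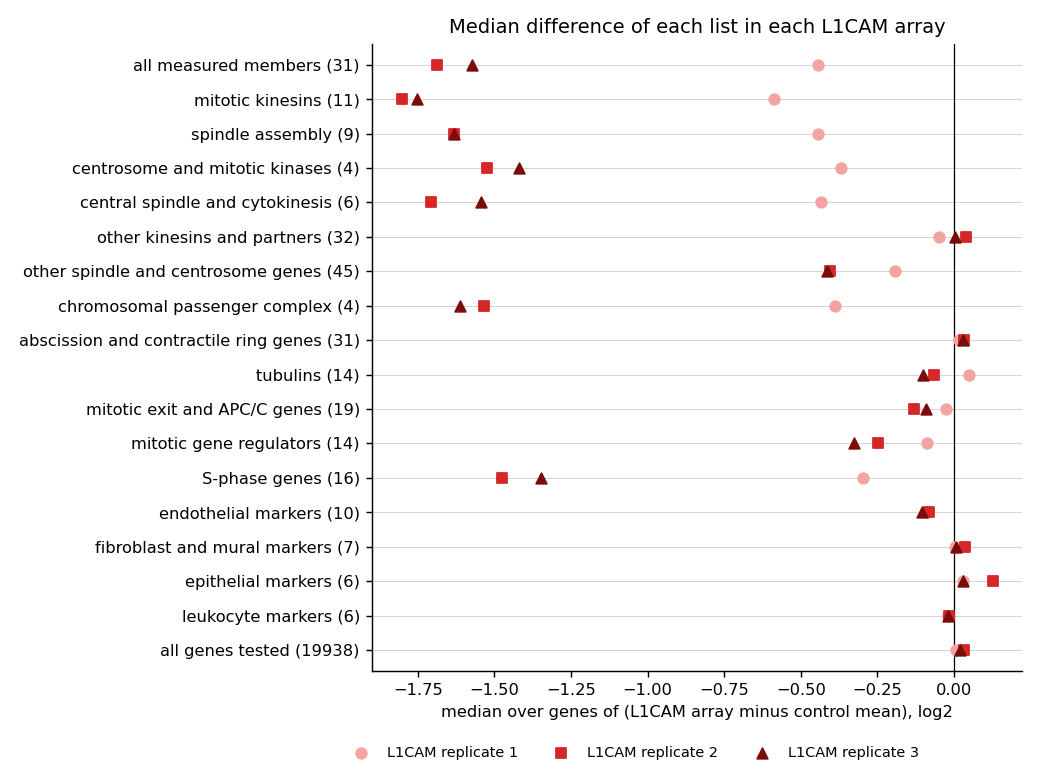
Points are the median over the genes of each list of the L1CAM array minus the control mean, on the log2 scale, 1 point per L1CAM replicate, with the number of measured genes in parentheses. The member groups, the chromosomal passenger complex and the S-phase genes lie at -1.35 or lower in L1CAM replicates 2 and 3. In replicate 1 they lie between -0.59 and -0.30. Other kinesins and partners, abscission genes, tubulins and cell type markers lie near 0.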

How the data were processed

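Each of the 6 arrays has a deposited column of log2 values, 1 per probe set. Per the submitters' processing notes, the authors ran RMA in version 1.1 of Affymetrix Expression Console, which corrects background, normalizes between arrays and summarises probes. The genome build behind the array design is not given in the sources used. Of 35512 probe sets, 21789 had 1 symbol in the platform annotation, 1621 had several and 12102 were unlisted. No detection calls were used, and the number of arrays limits the precision.

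The probe set of highest mean stood for each gene. Group differences over 19938 genes came from a linear model with group alone (limma 3.58.1, lmFit and eBayes, under R 4.3.3), two-sided, with Benjamini-Hochberg adjustment at 0.05. The fit was tested on simulated data. SE is the moderated standard error. Alternatives were other scalings, probe set rules, variance priors, array weights, a replicate block and leaving out each array.

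Members and lists were chosen with earlier results of these data known. The text names all members, up to 3 called genes per direction of each other list, endothelial markers and the brightest marker of other cell types. Incenp, Ube2s, Plk2, Tacc1, Kif2a, Kif2b, Ptprc and the second Kif14 probe set were chosen after their values were seen. Promoter windows came from RefSeq (GRCm38.p6), and figures from Python 3.11.15 with matplotlib 3.10.9.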

Additional observations from a re-analysis of the deposited data

How the results depend on the processing

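The count of 29 called members was also 29 after a further quantile normalization (8.04% of all genes called lower) and with array medians set to 0 (7.39%). An intensity trend in the variance prior gave 29 as well (8.92%). So did filtering out dim probe sets (16.3% of 11409 genes), averaging probe sets per gene (8.2%) and testing all probe sets (8.21%). Apart from Kif14, the only member with 2 probe sets, the filter and the probe set rules left member values unchanged. They could therefore hardly change the count. A robust variance prior called 8 members and 7.59% of all genes lower. An ordinary linear model called 0 (25 at an unadjusted p below 0.05), with 330 genes lower and 251 higher over all genes, against 1633 and 1366 in limma. Limma's treat test against a difference of 0.5 called 0 members (24 unadjusted), with 72 genes lower and 80 higher. Array weights, 0.32 for L1CAM replicate 1, called 31 members, with 2634 genes lower and 2557 higher. With the replicate block, limma called 6 members and 1144 genes lower (5.74% of all genes). Deviations from the group mean correlated at -0.10, -0.10 and -0.03 between same-numbered arrays, and at -0.09 to 0.12 between arrays of different number. Such deviations sum to 0 within each group of 3, so these values cannot tell whether same-numbered cultures were paired. Leaving out 1 array at a time gave 0 to 31 called members, 579 to 2566 genes lower and 454 to 2386 higher, and a median member difference of -1.65 to -1.03. No member difference changed sign under these alternatives. With 3 arrays a group, and L1CAM replicate 1 far from the others, the calls depend on how the spread is estimated. The cause of the gap between L1CAM arrays was not tested.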
